A study of Rattus norvegicus with 9 samples.

Results

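The 9 genes described here encode enzymes of the tricarboxylic acid (TCA) cycle, namely Cs, Idh3a, Idh3B, Idh3g, Ogdh, Dlst, Suclg1, Fh and Mdh2. They were taken by symbol from a table of 34092 rat genes, in which each name occurs in 1 row and Idh3b is spelled Idh3B. RNA was measured in 9 libraries of wild-type rat primary hippocampal neurons, prepared from fetuses of embryonic day 17 and cultured without a mitotic inhibitor. At 7 days in vitro, neurons of the PCT group were incubated for 24 h with 1 nM human procalcitonin (PCT), those of the NPCT group for 24 h with 1 nM human aminoprocalcitonin (NPCT), the amino-terminal peptide cleaved from PCT, and those of the Control group with vehicle. Each group had 3 libraries. The study's methods state that RNA came from pooled samples of biological triplicates, so the p-values below measure only the spread between these libraries, which may be technical.

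The TCA cycle runs in the mitochondrial matrix. It oxidises acetyl-CoA to carbon dioxide, and the NADH and succinate it yields pass their electrons to the respiratory chain in the inner membrane, whose complexes drive the ATP synthase. All of its enzymes are encoded in the nuclear genome, whereas the respiratory chain and the ATP synthase are built from both nuclear and mitochondrial gene products. In neurons, the cycle also turns over with glutamate and aspartate, and neuronal firing depends on the ATP that follows from it. The comparisons ask whether transcripts of these matrix enzymes differed after 24 h of NPCT or PCT, and how this compared with the subunits of the respiratory chain.

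Promoters are shown for the 4 members on which the comparisons turn: Idh3B and Mdh2, which each reached an adjusted p below 0.05 in 1 comparison, and Ogdh and Dlst, which had the largest positive differences under NPCT. The sequences are the 250 bases before the gene start in RefSeq (build GRCr8), printed 5′ to 3′ on the gene's strand, and capitals mark matches to a cAMP response element (CRE, TGACGTCA) or an ETS factor motif (CCGGAAGT, on either strand). The Mdh2 window is chr12:26543842-26544091 on the minus strand, the Ogdh window chr14:85363781-85364030 on the plus strand, the Dlst window chr6:110489456-110489705 on the plus strand and the Idh3b window chr3:137939991-137940240 on the minus strand.
Mdh2: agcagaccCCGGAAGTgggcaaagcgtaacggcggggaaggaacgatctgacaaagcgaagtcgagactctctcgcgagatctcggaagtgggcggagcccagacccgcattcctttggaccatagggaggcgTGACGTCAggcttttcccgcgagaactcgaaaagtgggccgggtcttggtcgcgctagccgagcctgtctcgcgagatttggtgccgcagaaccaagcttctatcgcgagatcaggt
Ogdh: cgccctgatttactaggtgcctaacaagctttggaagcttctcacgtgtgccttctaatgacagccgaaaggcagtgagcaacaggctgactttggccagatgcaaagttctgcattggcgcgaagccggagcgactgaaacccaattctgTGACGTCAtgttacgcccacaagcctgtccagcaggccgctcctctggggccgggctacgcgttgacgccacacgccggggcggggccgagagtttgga
Dlst: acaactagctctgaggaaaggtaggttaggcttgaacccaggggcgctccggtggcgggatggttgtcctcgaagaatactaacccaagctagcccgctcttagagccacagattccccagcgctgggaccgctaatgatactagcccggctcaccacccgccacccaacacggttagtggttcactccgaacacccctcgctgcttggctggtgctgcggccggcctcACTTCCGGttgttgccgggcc
Idh3b: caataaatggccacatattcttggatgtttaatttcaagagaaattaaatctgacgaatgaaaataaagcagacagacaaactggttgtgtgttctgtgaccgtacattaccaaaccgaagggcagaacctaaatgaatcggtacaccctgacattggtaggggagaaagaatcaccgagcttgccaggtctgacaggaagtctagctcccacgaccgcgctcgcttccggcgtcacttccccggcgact

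A promoter was found for 8 of the 9 members, and none for Idh3a. TGACGTCA occurred in those of Mdh2 and Ogdh, with its first base 117 and 99 bases before the start. The ETS letters lay 242 bases before the start in Mdh2 and, on the other strand, 21 bases before it in Dlst. The nuclear respiratory factor 1 motif (GCGCA, any base, then GCGC) was in 0 of the 8. Over 33469 rat promoters of the same length, the shares were 1.59% for the CRE, 3.10% for the ETS letters and 3.75% for the nuclear respiratory factor 1 motif, both strands counted, and no match overlapped another in the sequences shown. These matches are descriptions of the sequence.

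All members were well covered. The deposited values are FPKM, fragments per length of the gene and per depth of the library, so levels can be compared between genes. The fragments behind a value ranged from 609 for Fh in NPCT 2 to 5445 for Cs in PCT 3. All 9 members were among the 15958 genes tested, whose mean over the libraries was 0.5 FPKM or more, and their mean FPKM lay between the 60.8 percentile of these genes for Ogdh and the 98.0 percentile for Cs. Library totals were 13573056 to 17211642 fragments. PCT 3 stood apart from the other PCT libraries, with a chi-square per degree of freedom of 21.6 and 18.9 against PCT 1 and PCT 2, which differed from each other by 6.38. NPCT 3 stood apart to a smaller extent, with 10.6 and 10.8 against NPCT 1 and NPCT 2, which differed by 4.38. The neuronal markers were all detected, with a summed level of 2380 to 2485 FPKM in Control, 2314 to 2378 in NPCT and 2368 to 2573 in PCT, and so were all 8 astrocyte markers, at 2128 to 2315, 2052 to 2369 and 1936 to 2012 FPKM. The 11 microglial markers summed to 27.7 to 39.7 FPKM in Control and 14.3 to 19.1 in PCT, and to 43.2, 38.8 and 176.9 in NPCT 1, 2 and 3. Of the 6 markers of endothelium and pericytes, Cldn5 was at 0 in every library, and Cdh5, Flt1 and Rgs5 reached at most 0.251 FPKM. Kdr, at 0.777 to 1.50 FPKM, and Pdgfrb, at 2.57 to 3.90 FPKM, were detected in every library.

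The order of the levels was much the same in each group. Mdh2 and Cs, which make and use oxaloacetate, were the most abundant members, followed by the isocitrate dehydrogenase subunits, and Ogdh was the lowest. In Control, the order was Mdh2, Cs, Idh3a, Idh3g, Idh3B, Dlst, Suclg1, Fh and Ogdh, and among neighbours only Idh3a and Idh3g overlapped between libraries. With NPCT, Cs at 177.8 FPKM stood above Mdh2 at 159.0 FPKM with no overlap, while Idh3B, Idh3g and Idh3a overlapped. With PCT, Mdh2 and Cs overlapped, as did the neighbours among the Idh3 subunits and the pair Suclg1 and Fh. Because the libraries are bulk samples, fewer cells of a type and less RNA per cell cannot be told apart in any of these levels.

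**Figure D1:**
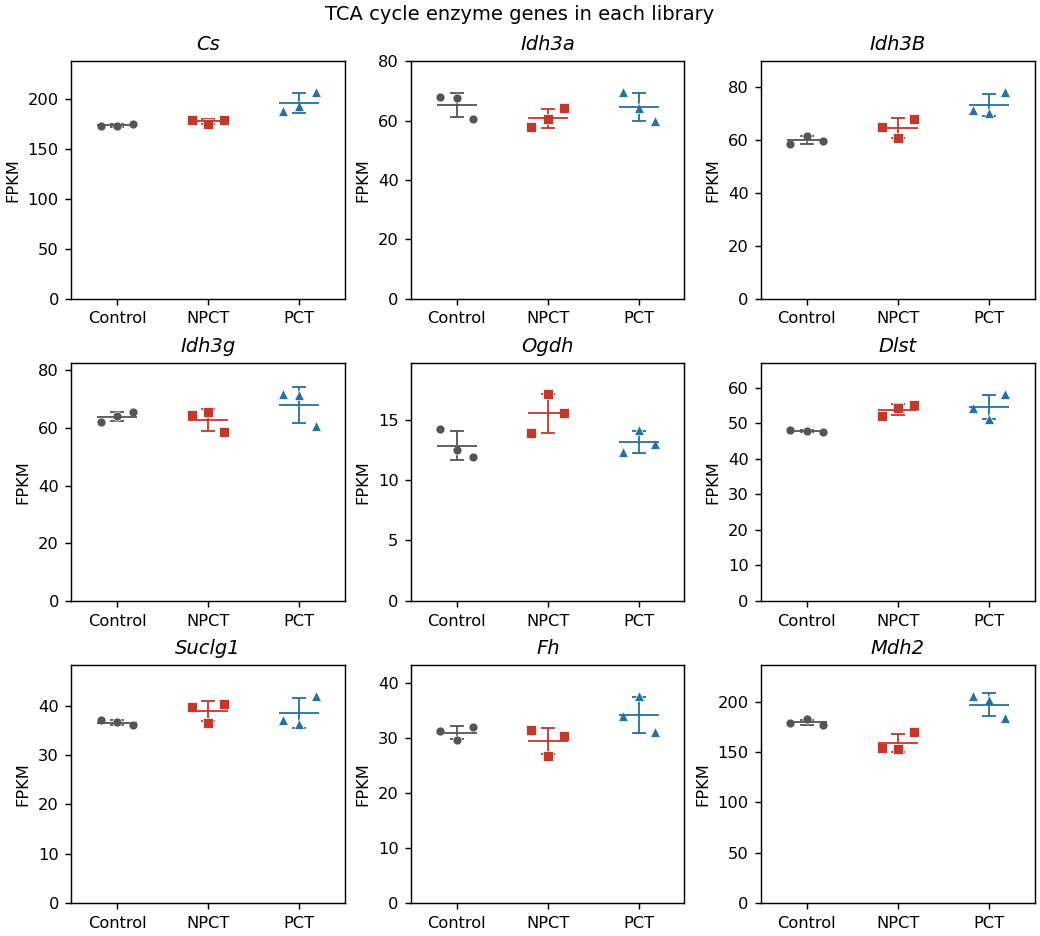
FPKM of each member (y axis, from 0) in the Control, NPCT and PCT groups (x axis); points are libraries, in the order of replicate 1 to 3 from left to right, the horizontal line is the group mean and the bars are 1 SD (n = 3). Idh3B was highest in the 3 PCT libraries, at 70.3 to 78.0 FPKM, and Mdh2 was lowest in the 3 NPCT libraries, at 152.7 to 169.6 FPKM.

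Cs encodes citrate synthase, which joins acetyl-CoA to oxaloacetate at the entry of the cycle. Its level was 173.1, 173.1 and 175.3 FPKM in Control, 179.1, 174.9 and 179.4 in NPCT and 188.6, 192.7 and 207.1 in PCT. The PCT libraries lay above all others, whereas NPCT and Control overlapped. Cs was at 196.2 ± 9.73 FPKM with PCT against 173.8 ± 1.27 in Control (SD, n = 3), a log2 fold change of 0.17 (SE 0.052), with a limma p of 0.00851 that was 0.104 after adjustment over all genes. Between NPCT and Control the difference was 0.033 (SE 0.052, limma adjusted p = 0.707). The gene lies at chr7:2752680-2778963 on the plus strand, where the table also places a small nucleolar RNA within its span.

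Isocitrate dehydrogenase, the NAD-dependent enzyme that turns isocitrate into alpha-ketoglutarate, is built from the products of Idh3a, the catalytic subunit, and of Idh3B and Idh3g. Idh3B, at chr3:122808564-122813583 on the minus strand, was at 58.4, 61.4 and 59.5 FPKM in Control, 64.9, 60.6 and 68.1 in NPCT and 71.3, 70.3 and 78.0 in PCT. Every PCT library was above every library of the other groups, and NPCT 2 lay within the Control range. With PCT, Idh3B was at 73.2 ± 4.21 FPKM against 59.8 ± 1.52 (SD, n = 3), 22.3% higher with a 95% interval of 10.6 to 35.1%. It was the only member with an adjusted p below 0.05 in this comparison (log2 fold change 0.29, SE 0.064, limma adjusted p = 0.0410), and its fold change of 1.22 stayed below the 1.5 that the study's threshold asks for. The adjusted p ranged from 0.0148 to 0.0673 over other ways of processing the data. It ranged from 0.0367 to 0.164 when each of the 9 libraries was left out in turn, and was above 0.05 in 8 of these 9 fits, that is, in all but the one without NPCT 3. With NPCT the difference from Control was 0.11 (SE 0.064, limma adjusted p = 0.289).

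The partners of Idh3B did not show the same values. Idh3a, at chr8:59164572-59183908 on the plus strand, was at 67.9, 67.6 and 60.6 FPKM in Control, 57.8, 60.4 and 64.2 in NPCT and 69.6, 64.1 and 60.0 in PCT. Idh3g, at chrX:156999826-157008733 on the plus strand, was at 62.1, 64.3 and 65.5 FPKM in Control, 64.5, 65.6 and 58.5 in NPCT and 71.7, 71.5 and 60.7 in PCT. The groups overlapped for both genes, and PCT 3 was the lowest PCT library for each while it was the highest for Idh3B. The log2 fold change of Idh3a was -0.10 (SE 0.076, limma adjusted p = 0.389) with NPCT and -0.018 (SE 0.076, limma adjusted p = 0.935) with PCT. That of Idh3g was -0.026 (SE 0.078, limma adjusted p = 0.851) and 0.084 (SE 0.078, limma adjusted p = 0.628).

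As a description within libraries, the ratio of Idh3a to Idh3B was 1.02 to 1.16 in Control, 0.890 to 0.997 in NPCT and 0.768 to 0.977 in PCT, so that Control lay above both peptides. The ratio of Idh3g to Idh3B was 1.05 to 1.10 in Control, 0.860 to 1.08 in NPCT and 0.778 to 1.02 in PCT, so that Control lay above PCT and NPCT overlapped both. Such a ratio shows unequal levels of the transcripts and not which of them moved.

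Ogdh and Dlst encode the E1 and E2 components of the alpha-ketoglutarate dehydrogenase complex, which makes succinyl-CoA and is shared with glutamate breakdown. Ogdh was at 14.2, 12.5 and 11.9 FPKM in Control, 13.9, 17.1 and 15.6 in NPCT and 12.3, 14.2 and 13.0 in PCT. NPCT 2 and NPCT 3 were above all other libraries, and NPCT 1 lay within the range of Control. Its log2 fold change with NPCT was 0.27 (SE 0.10), 20.5% higher with a 95% interval of 2.78 to 41.3%, and the limma p of 0.0264 became 0.121 after adjustment. With PCT it was 0.035 (SE 0.10, limma adjusted p = 0.902). The span of Ogdh, chr14:86414949-86613327 on the plus strand, contains Zmiz2 on the same strand (chr14:86514214-86530701, mean 3.72 FPKM). Npc1l1 and the entry RF00015 also overlap this span, so the value of Ogdh is less certain than the others.

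Dlst, at chr6:108936664-108959803 on the plus strand, differed from Control in the same direction with both peptides. It was at 48.0, 47.8 and 47.5 FPKM in Control, 52.1, 54.4 and 55.1 in NPCT and 54.4, 51.3 and 58.2 in PCT. All 6 peptide-treated libraries were above all 3 Control libraries. The log2 fold change was 0.17 (SE 0.059) with NPCT, with a limma p of 0.0163 and an adjusted p of 0.0979, and 0.19 (SE 0.059) with PCT, with a limma p of 0.00995 and an adjusted p of 0.113. Both comparisons use the same 3 Control libraries, whose SD for Dlst was 0.238 FPKM. NPCT and PCT were close (log2 fold change -0.018, 95% interval -0.15 to 0.11, limma adjusted p = 0.861).

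Suclg1 encodes the alpha subunit of succinyl-CoA ligase, the step with substrate-level phosphorylation, and Fh encodes fumarase, which hydrates fumarate to malate. Suclg1, at chr4:101180404-101210746 on the plus strand, was at 37.0, 36.6 and 36.0 FPKM in Control, 39.8, 36.5 and 40.3 in NPCT and 37.2, 36.3 and 41.9 in PCT. Fh, at chr13:93651484-93677377 on the minus strand, was at 31.2, 29.6 and 31.9 FPKM in Control, 31.3, 26.7 and 30.2 in NPCT and 33.9, 37.5 and 31.0 in PCT. Both genes overlapped between every pair of groups. The log2 fold changes of Suclg1 were 0.087 (SE 0.070, limma adjusted p = 0.434) with NPCT and 0.070 (SE 0.070, limma adjusted p = 0.657) with PCT. Those of Fh were -0.072 (SE 0.087, limma adjusted p = 0.613) and 0.14 (SE 0.087, limma adjusted p = 0.432).

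Mdh2 encodes the mitochondrial malate dehydrogenase, which closes the cycle by regenerating oxaloacetate and also serves the malate-aspartate shuttle. It lies at chr12:23941448-23954431 on the minus strand in the table. Its level was 178.7, 182.5 and 177.1 FPKM in Control, 154.5, 152.7 and 169.6 in NPCT and 205.6, 201.3 and 184.3 in PCT. The 3 groups did not overlap, with NPCT lowest, Control between and PCT highest. Against Control, the log2 fold change was -0.18 (SE 0.063) with NPCT, with a limma p of 0.0208 and an adjusted p of 0.108, and 0.13 (SE 0.063) with PCT, with a limma p of 0.0637 and an adjusted p of 0.299. Between the peptides it was -0.31 (SE 0.063, limma adjusted p = 0.0158). This is a level 19.3% lower with NPCT than with PCT, with a 95% interval of 10.9 to 26.9% lower in NPCT.

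The Mdh2 difference between the peptides kept its sign under every setting run, with log2 values of -0.41 to -0.28. Its adjusted p was above 0.05 when only these 2 groups were fitted (limma adjusted p = 0.0656) and when NPCT 1, NPCT 2, PCT 1 or PCT 2 was left out, with 0.0032 to 0.0594 over the 9 fits without 1 library. Within libraries, the ratio of Mdh2 to Cs was 1.01 to 1.05 in Control and 0.862 to 0.946 in NPCT, with no overlap. In PCT it was 1.09, 1.04 and 0.890, and the last of these, PCT 3, was within the NPCT range.

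**Figure D2:**
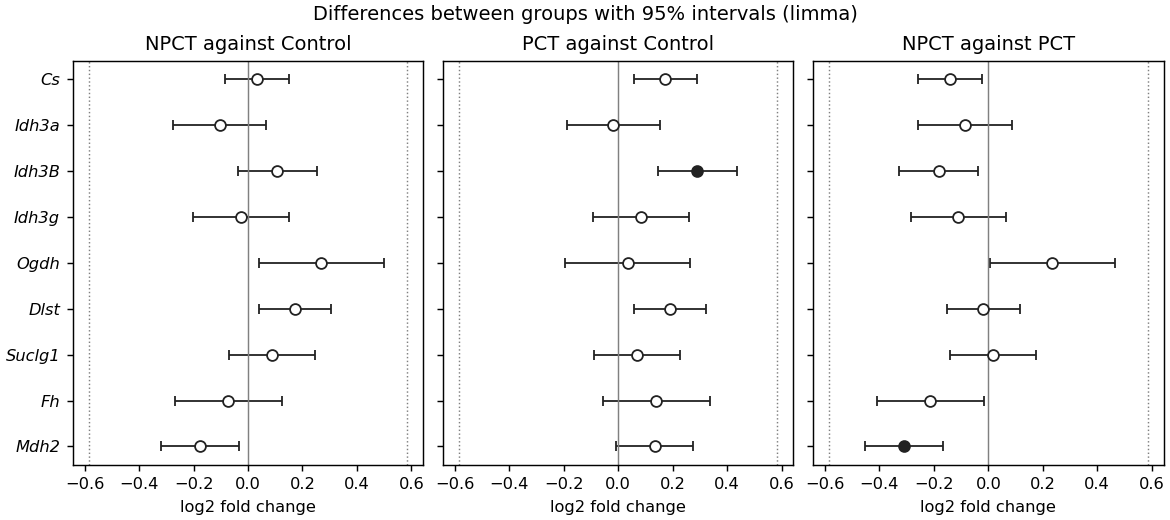
Log2 fold change (x axis) of each member (y axis) in the 3 comparisons, from limma; points are estimates, bars are 95% intervals, filled points have an adjusted p of at most 0.05 and dotted lines mark a 1.5-fold change. Idh3B with PCT (0.29) and Mdh2 between NPCT and PCT (-0.31) are the filled points, and every interval stays within the dotted lines.

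Taken as a list, 0 of the 9 members passed the study's threshold (adjusted p of at most 0.05 and fold change above 1.5) in limma for NPCT against Control, where 0.219% of all genes tested did. The count was also 0 of 9 for PCT against Control, where 2.31% of genes passed, and for NPCT against PCT, where 5.75% passed. The study applied its threshold to results of another tool, DESeq2, so these shares are those of limma on FPKM and not the study's own. A second tool, limma-voom on fragments recovered from the FPKM, gave 0 of 9 in each comparison as well. In both tools every member stayed below a 1.5-fold change, so the fold criterion alone set these counts. Without the fold criterion, the members with an adjusted p of at most 0.05 were 0 for NPCT against Control (background 0.47%), Idh3B for PCT against Control (background 4.2%) and Mdh2 for NPCT against PCT (background 16.3%), 1 of 9 in each of the last comparisons.

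At an unadjusted p under 0.05, limma named 3 of 9 members for NPCT against Control (Ogdh and Dlst higher, Mdh2 lower), beside 29.3% of all genes. For PCT against Control it named 3 of 9 (Cs, Idh3B and Dlst, all higher), beside 18.9% in either direction and 10.1% higher. For NPCT against PCT it named 5 of 9 (Cs, Idh3B, Fh and Mdh2 lower, Ogdh higher), beside 33.1% in either direction and 17.5% lower. The groups did not overlap for 2, 4 and 3 of the members, where 40.3%, 24.9% and 33.4% of all genes did not. The 4 for PCT against Control (Cs, Idh3B, Dlst and Mdh2) were higher, as were 13.1% of all genes, and the 3 for NPCT against PCT (Cs, Idh3B and Mdh2) were lower, as were 18%. These unadjusted counts moved with single libraries and settings. For NPCT against Control there was 1 without Control 2 or without NPCT 2. For PCT against Control there were 6 without PCT 3. For NPCT against PCT there was 1 without NPCT 2, 2 in the fit of only these groups, 2 with FPKM per total fragments, and 3 with the replicate block or without PCT 1. With 3 libraries against 3, the smallest p of an exact permutation test on 1 member would be 0.1. The 95% intervals of all 27 differences ended inside a 1.5-fold change in either direction.

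The members were on balance slightly higher with PCT and mixed with NPCT. Their median log2 fold change was 0.033 with NPCT, with 5 of 9 higher, and 0.13 with PCT, with 8 of 9 higher. The medians over all genes tested were 0.0062 and 0.0046. Between NPCT and PCT it was -0.11, with 7 of 9 lower in NPCT, against -0.0076 over all genes. The FPKM of the 9 members summed to 665 to 675 in Control, 649 to 681 in NPCT and 734 to 745 in PCT, so the PCT sums lay above the rest and Cs and Mdh2 are the most abundant members in them. All 3 PCT libraries shared this sum, PCT 3 included, at 734.

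These values stand beside other differences between the groups. Of the astrocyte markers, 4 of 8 (Aqp4, Slc1a2, Aldh1l1 and S100b) passed the threshold as lower in PCT than in Control. Of the microglial markers, 3 of 11 did (Aif1, Cx3cr1 and Csf1r). Over all genes, 2.31% passed in either direction, with 274 of 15958 lower. The summed levels of both marker lists are given above. Gfap, the most abundant astrocyte marker, had the opposite sign, at 918.8 ± 17.2 FPKM with PCT against 775.7 ± 48.1 (SD, n = 3; log2 fold change 0.25, limma adjusted p = 0.147). All 5 fibroblast markers were on the higher side with PCT, with a summed level of 13.6 to 22.6 FPKM against 11.4 to 14.9, and Col3a1 passed the threshold (0.87, limma adjusted p = 0.0413). The 9 markers of the oligodendrocyte lineage had a median of 0.17 with PCT, with 7 higher and 2 lower, and a summed level of 354 to 368 FPKM against 409 to 427 in Control. With NPCT their median was 0.18, with 8 of 9 higher and 4 at an unadjusted p under 0.05, beside 29.3% of all genes. Their summed level with NPCT was 439 to 455 FPKM, above every Control library. Olig1 had the smallest log2 fold change of them with PCT (-0.51, limma adjusted p = 0.00161). It was at 190.7 ± 5.24 FPKM with PCT against 271.5 ± 11.3 in Control (SD, n = 3). As the most abundant of the 9, Olig1 weighs most in their summed level. Gfap and Olig1 were singled out after their values were seen. Of the 13 neuronal markers, 7 had an unadjusted p under 0.05 with NPCT against Control (6 lower, 1 higher), beside 29.3% of all genes. All 11 microglial markers were higher with NPCT (median 0.49), 1 of them at an unadjusted p under 0.05. Between NPCT and PCT, 7 of 11 microglial and 2 of 8 astrocyte markers passed the threshold as higher with NPCT, beside 5.75% of all genes. There, 8 of 13 neuronal markers had an adjusted p of at most 0.05 (5 lower, 3 higher), beside 16.3%. The part of these differences in the level of the TCA genes was not tested.

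The nuclear subunits of the respiratory chain and ATP synthase (complexes I, III, IV and V, 74 tested genes) gave larger medians than the TCA members with both peptides. Complex II was left out because it is itself the succinate dehydrogenase of the cycle. The median log2 fold change of the subunits was 0.24 with NPCT and 0.23 with PCT, with 60 and 68 of 74 higher, against 0.033 and 0.13 for the TCA members. In limma, 0 of 74 subunits passed the threshold in either comparison, a count taken from the main fit only. With NPCT, some changed more than 1.5-fold and missed it narrowly by adjusted p. Singled out after their values were seen, Ndufa13 (log2 fold change 0.99), Uqcr11 (1.05) and Atp5me (1.09) each had a limma adjusted p of 0.0508. At an unadjusted p under 0.05 there were 40 of 74 with NPCT (37 higher), beside 29.3% of all genes, and 32 of 74 with PCT (all higher), beside 18.9%. The groups did not overlap for 53 of 74 with NPCT, beside 40.3%, and for 38 of 74 with PCT, beside 24.9%. At an adjusted p of at most 0.05 alone, Ndufb8 of complex I was the 1 subunit with NPCT, and those with PCT included Ndufb8 and Atp5po of the ATP synthase, all of them higher. By complex (I, III, IV and V in this order), the medians were 0.24, 0.15, 0.23 and 0.21 with NPCT and 0.21, 0.17, 0.27 and 0.30 with PCT. Complex I was here the list of genes with Nduf symbols, Ndufa4 included, so its median follows the naming. The 13 subunits encoded by mitochondrial DNA had medians of -0.62 with NPCT and -0.049 with PCT, and 0 of 13 passed the threshold against Control. With NPCT, all 13 were lower, with 11 at an unadjusted p under 0.05, beside 29.3% of all genes. The groups did not overlap for 12 of 13 with NPCT, beside 40.3%. With PCT, both counts were 0 of 13. Their median log2 level, relative to the mean of all libraries, was 0.44 and 0.28 in PCT 1 and PCT 2 but -0.24 in PCT 3, above the NPCT libraries at -0.45 to -0.28. Between NPCT and PCT, the nuclear subunits had a median of 0.060, whose sign turned with gene length (-0.068 with the length trend removed, -0.059 for the 15 subunits of at least 1319 bases and 0.13 for the 59 shorter ones), and Atp5me, a small subunit of the ATP synthase, was the 1 of 74 that passed the threshold, as higher with NPCT (1.28, limma adjusted p = 0.00826). The mitochondrial subunits had a median of -0.60 there, and 4 of 13 (ND2, ND4, ND4L and ND5, all of complex I) passed as lower with NPCT. Over all genes, 5.75% passed in this comparison in either direction, with 219 of 15958 lower with NPCT.

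Within each library, the median log2 level of the nuclear subunits was subtracted from that of the members, each gene being centred on its mean of all libraries. This contrast was 0.11, 0.092 and 0.080 in Control. It was -0.099, -0.070 and -0.18 in NPCT, below every Control library. In PCT it was 0.15, 0.069 and -0.14, so that PCT 1 and PCT 2 were near Control and PCT 3 lay within the NPCT range. These are descriptions of log2 levels and have no test.

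**Figure D3:**
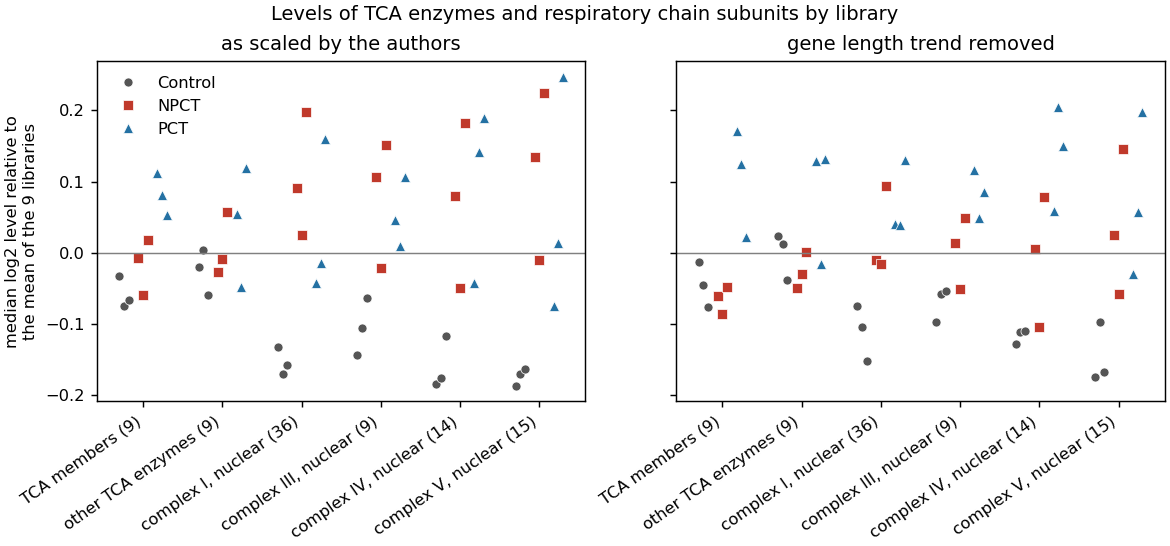
Median log2 level of each gene list relative to the mean of the 9 libraries (y axis) for TCA enzymes and nuclear subunits (x axis, number of genes tested in brackets), as scaled by the authors (left) and with the length trend of every library taken out (right); each point is 1 library. The TCA members of the 3 PCT libraries lie at 0.053 to 0.11 in the left panel, above the Control libraries at -0.075 to -0.033, and the NPCT libraries, at -0.059 to 0.017, overlap Control.

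Gene length moved with this contrast. The median length in the table was 1587 bases for the members, 665 bases for the 74 subunits and 2136 bases for all genes tested. The slope of log2 level on log2 length was -0.027 to -0.018 in the NPCT libraries and -0.027 in PCT 3, and -0.00060 to 0.028 in the other 5 libraries. With this trend removed in each library, the median of the members was -0.056 with NPCT and 0.13 with PCT, and that of the subunits 0.090 and 0.23. The median fold change of the members therefore stayed below that of the subunits in both comparisons, but the NPCT median of the members changed sign. By library, the trend-removed level of the members was above that of the subunits in PCT 1 (0.17 against 0.040) and PCT 2 (0.12 against 0.063). It was below in PCT 3 (0.022 against 0.16) and every NPCT library, and above in every Control library.

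The subunits were also split by length, a split chosen after the values were seen, and for PCT this gave another picture than removing the trend. The shortest member, Mdh2, is 1319 bases long, and 15 of the 74 subunits are at least as long. Their median log2 fold change was 0.13 with NPCT (9 higher, 6 lower) and 0.15 with PCT (13 higher, 2 lower), close to the 0.13 of the members with PCT and above their 0.033 with NPCT. The 59 shorter subunits had medians of 0.27 with NPCT and 0.27 with PCT. With PCT, the subunits were 0.23 against 0.13 for the members once the trend was removed, but the long subunits alone were close to the members. The part of length in either difference was not tested beyond these values.

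**Figure D4:**
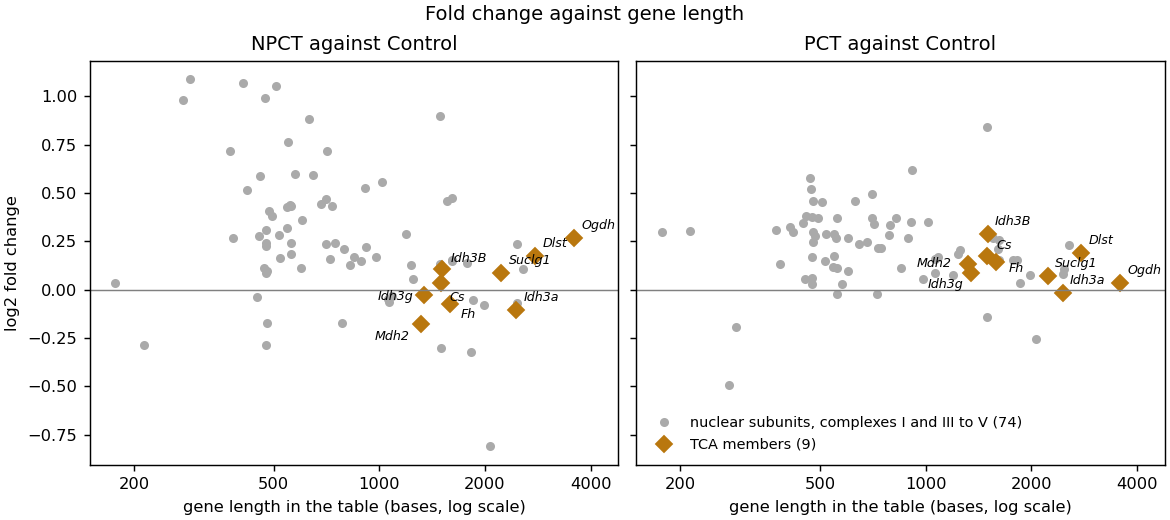
Log2 fold change against Control (y axis) by gene length in bases (x axis, log scale) for the 9 TCA members (diamonds) and the 74 nuclear subunits (circles), for NPCT (left) and PCT (right); each point is 1 gene. The 59 subunits shorter than 1319 bases, the length of Mdh2, have a median of 0.27 in each panel, and no member is that short.

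The other enzymes of the cycle were described in the same way. Of 9 such genes (Idh2, Ogdhl, Dld, Sucla2, Suclg2, Sdha, Sdhb, Sdhc and Sdhd), 0 passed the threshold in limma in any comparison. Their median log2 fold change was 0.030 with NPCT, 0.090 with PCT and 0.0063 between the peptides, with 5 higher and 4 lower in each comparison. Their summed level was 505 to 519 FPKM in Control and 514 to 566 in PCT, which overlapped, and 519.1 to 553.8 in NPCT, just above Control at up to 518.5. At an unadjusted p under 0.05 there were 1, 3 and 3 of 9, beside 29.3%, 18.9% and 33.1% of all genes. With NPCT, the largest value was that of Sdha, the flavoprotein of succinate dehydrogenase, at 72.1 ± 2.46 FPKM against 60.9 ± 1.41 (SD, n = 3; log2 fold change 0.24, limma adjusted p = 0.0653), and the smallest that of Suclg2, the subunit of the GTP-forming succinyl-CoA ligase (-0.10, adjusted p = 0.374). With PCT, the largest was Sdhd, a membrane anchor of succinate dehydrogenase, at 78.9 ± 9.52 FPKM against 69.1 ± 3.35 (SD, n = 3; log2 fold change 0.19, limma adjusted p = 0.336). The smallest was Ogdhl, a relative of Ogdh (-0.30, limma adjusted p = 0.120). Between NPCT and PCT, Ogdhl had the largest value (0.28, limma adjusted p = 0.0756) and Dld, the E3 component shared by the dehydrogenase complexes, the smallest (-0.15, limma adjusted p = 0.114).

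The entry of pyruvate was described with 13 genes of the pyruvate dehydrogenase complex, its kinases and phosphatases and the mitochondrial pyruvate carrier. None (0 of 13) passed the threshold in limma, with 4, 4 and 6 at an unadjusted p under 0.05 for NPCT against Control, PCT against Control and NPCT against PCT, beside 29.3%, 18.9% and 33.1% of all genes. With NPCT the largest value was that of Mpc2, a subunit of the carrier, at 221.5 ± 2.45 FPKM against 171.1 ± 4.38 (SD, n = 3; log2 fold change 0.37, limma adjusted p = 0.0792). With PCT it was Mpc1, the other carrier subunit, at 90.8 ± 4.84 FPKM against 69.9 ± 1.19 (SD, n = 3; log2 fold change 0.38, limma adjusted p = 0.0139). The lowest in every comparison was Pdk4, a kinase that inhibits the complex, which was under 1 FPKM on average in each group (limma adjusted p = 0.308, 0.763 and 0.568).

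Between the peptides, 4 of these 13 genes had an adjusted p below 0.05, beside 16.3% of all genes, of which Pdk2 had the largest value by the rule used here and the other three were singled out after their values were seen. Pdha1, the catalytic E1 alpha subunit that the kinases phosphorylate, was at 66.4 ± 1.31 FPKM with NPCT and 83.0 ± 0.702 with PCT (SD, n = 3; log2 fold change -0.32, limma adjusted p = 0.00418). Mpc1 was also lower with NPCT than with PCT (-0.34, limma adjusted p = 0.0116), as was Pdp1, the phosphatase that reactivates the complex (-0.30, limma adjusted p = 0.0300). Pdk2, a kinase, was higher with NPCT (0.27, limma adjusted p = 0.0331).

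Of 15 genes of side branches of the cycle (anaplerosis, glutamate, ketone body and cytosolic steps), 0 passed the threshold in limma, with 6, 4 and 5 at an unadjusted p under 0.05, beside 29.3%, 18.9% and 33.1% of all genes. With NPCT the extremes were the malic enzymes Me3 (0.33, limma adjusted p = 0.498) and Me1 (-0.25, limma adjusted p = 0.0848). With PCT they were Me2 (0.19, limma adjusted p = 0.393) and Pc (-0.37, limma adjusted p = 0.0200), the pyruvate carboxylase that refills oxaloacetate and is known as an astrocyte enzyme in brain. Pc was at 22.5 ± 1.22 FPKM in Control, 25.1 ± 0.786 in NPCT and 17.4 ± 0.964 in PCT (SD, n = 3), and between the peptides it gave 0.53 (limma adjusted p = 0.00276), with Me2 the smallest at -0.26 (limma adjusted p = 0.133). Its lower level in PCT stands beside the lower summed level of the astrocyte markers there, and the part of the markers in it was not tested. Pck2, a mitochondrial carboxykinase singled out after its value was seen, gave 0.50 between the peptides (limma adjusted p = 0.0408).

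The genes whose levels over the 9 libraries were most like the mean of the members were sought among 9901 genes outside the lists with a mean of at least 5 FPKM. They were Arl4a, Rpl3, Cct5, Flnc and Taf3, with Pearson's r from 0.973 to 0.982 over 9 libraries that share the group differences. Arl4a, the closest, averaged 20.1 FPKM in Control, 21.7 in NPCT and 27.7 in PCT, and Rpl3, a protein of the large ribosomal subunit, averaged 138.1, 144.7 and 173.0.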

How the data were processed

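The authors prepared poly(A)-selected libraries, aligned the reads with HISAT2 2.0.5, counted fragments with featureCounts 1.5.0-p3 and deposited FPKM per gene. Build Rnor_6.0 comes from the submitters' processing notes, and positions are those of the table. The kit is not stated to keep strand. The deposited FPKM already carried a median-ratio scaling, since the median-ratio factor was 1.01 in all 9 libraries, and FPKM times length gave whole fragments for 100% of values (tolerance 0.01).

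Log2(FPKM + 0.1) was fitted, for the 15958 genes whose mean FPKM reached 0.5, with limma 3.58.1 (R 4.3.3, intensity trend) over all 9 libraries, with Benjamini-Hochberg adjustment over all genes. Fold changes are on this log2(FPKM + 0.1) scale. Following the study, genes had to reach an adjusted p of 0.05 or less together with more than 1.5-fold change. In data simulated for NPCT against Control over 15838 genes, 184 of 200 genes changed 2-fold were recovered, with 6 false calls. The simulation gave every gene the same dispersion, had no library that stood apart and changed only well covered genes. It therefore does not give the recovery in these data, nor that of differences as small as those of the members. The members and gene lists were chosen with earlier results of these data known. Beside the members, the text names the 5 genes most like their mean. In the enzyme lists, where none passed the threshold, it names those with the largest and smallest fold change. Nuclear subunits against Control are named by adjusted p instead, and with PCT not all that reached it. Among markers and other subunits, genes that passed the threshold are named, except markers between NPCT and PCT. Genes described as singled out were added after their values were seen. Results of some single genes are not reported here. Alternatives were other pseudocounts, filters, scalings, a length correction, a replicate block, limma-voom, fits of 2 groups and leaving out each library. Table rows do not separate reads of near-identical copies, and RefSeq lists copies of Mdh2, Cs, Idh3b and Fh. No column holds the authors' comparisons.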

Additional observations from a re-analysis of the deposited data

How the results depend on the processing

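The count of members past the threshold (adjusted p of at most 0.05, fold change above 1.5) was 0 in all 3 comparisons under every setting run. No member reached a 1.5-fold change in any of them, the largest log2 value being -0.41 for Mdh2 between NPCT and PCT. The fold criterion alone therefore set this count, whatever the adjusted p. Over settings other than leaving out a library, 291 of 297 member values kept their direction. The exceptions were Cs for NPCT against Control (-0.040 with quantile normalization, -0.056 with the gene length trend removed), Idh3g for NPCT against Control (0.013 with FPKM per total fragments, an alternative chosen after seeing the data), Idh3a for PCT against Control (0.014 with the length trend removed), Suclg1 for NPCT against PCT (-0.040 with the length trend removed) and Dlst for NPCT against PCT (0.013 per total fragments). The median of the members moved to -0.040 (quantile), -0.056 (length trend) and 0.072 (per total fragments) for NPCT against Control, to 0.092 (quantile) for PCT against Control and to -0.21 (length trend) for NPCT against PCT. The cause was not tested.

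At an adjusted p of at most 0.05 alone, NPCT against Control had 1 member, Dlst, when only the 2 groups compared were fitted. PCT against Control had 0 without a filter on low values, 0 in the fit of 2 groups and 3 with the length trend removed (Cs, Idh3B and Dlst). NPCT against PCT had 3 with quantile normalization (Cs, Idh3B and Mdh2), 0 in the fit of 2 groups and 4 with the length trend removed (Cs, Idh3B, Fh and Mdh2). With the replicate number as a block, PCT against Control had 0 members (Idh3B at an adjusted p of 0.0553) and no other count changed. Libraries of the same number did not deviate together (correlations -0.072 to 0.034). With 3 libraries a group, this does not show whether they shared a culture or preparation.

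Leaving out each library in turn, 231 of 243 member values kept their direction, and the counts at an adjusted p of at most 0.05 ranged from 0 to 2 for NPCT against Control, 0 to 1 for PCT against Control and 0 to 3 for NPCT against PCT. Without PCT 3, these were 2 (Dlst and Mdh2), 0 and 3 (Idh3g, Fh and Mdh2). The medians ranged from 0.026 to 0.045, from 0.10 to 0.14 and from -0.14 to -0.069. The values that changed sign were Idh3g for NPCT against Control (-0.057 to 0.025), Idh3a (-0.074 to 0.034) and Ogdh (-0.019 to 0.11) for PCT against Control, and Dlst (-0.063 to 0.029) and Suclg1 (-0.024 to 0.081) for NPCT against PCT. Over all genes, the count past the threshold for NPCT against Control was 35, and it ranged from 0 per total fragments to 579 in the fit of 2 groups (354 with limma-voom, 319 with the block, 208 at a minimum of 1 FPKM, 190 with quantile normalization, 55 with the length trend removed, 9 with no filter) and from 0 to 562 without 1 library. For NPCT against PCT it was 918, with 454 in the fit of 2 groups and 525 to 1623 without 1 library, and for PCT against Control 368, with 172 to 398 without 1 library. At an adjusted p of at most 0.05 alone, the 75 genes for NPCT against Control became 3007 in the fit of 2 groups, 1515 with limma-voom, 1235 with the block, 734 at a minimum of 1 FPKM, 602 with quantile normalization, 133 with the length trend removed, 11 with no filter and 0 per total fragments, and 0 to 3077 without 1 library (3077 without PCT 3, 713 without PCT 1, 0 to 2 without any other), so the share of all genes beside the members' count moved with them. For PCT against Control the 671 genes became 424 in the fit of 2 groups and 207 to 725 without 1 library, and for NPCT against PCT the 2599 became 762 and 995 to 4650. No scaling moved the median of all genes by 0.1.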
